A study of Arabidopsis thaliana with 20 samples.

Results

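The comparison described here sets plants that carry a PPD3-overexpressing transgene against transgene-free plants of the next generation, with dwarf and non-dwarf plants balanced. Its members were the 14 of 20 RNA sequencing samples of aboveground Arabidopsis thaliana tissue that belong to 4 groups. Of the 14, T+ dwarf, T+ normal and Gen2 large hold 3 each and Gen2 dwarf holds 5. The mean of both T+ groups was set against the mean of both Gen2 groups, each group with equal weight, over all genes. By their labels, T+ samples have the genotype PPD3-OX T+, with the phenotype dwarf or normal. Gen2 samples lack the transgene and descend from Gen1, a transgene-free dwarf generation whose plants were sister plants of T+. All 14 share the Col-0 background and the bolting stage. Gen1 dwarf (n = 3) and wild type (WT, n = 3, of which WT 3 has the ecotype label Col-1) entered the fit and are given beside the results. Transgene and generation move together in this comparison and cannot be told apart in it. Only the dwarf groups share a phenotype label, since the non-dwarf plants are labelled normal in T+ and large in Gen2. In that pair, normal against large cannot be told apart from transgene and generation either. Dwarf and non-dwarf are called the plant sizes below. No label states the promoter of the transgene, the number of insertion lines, or how many plants went into a sample. The p-values therefore measure the spread between these samples, which may be partly technical.

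PPD3 belongs to a family of chloroplast proteins that carry the domain of PsbP, an extrinsic subunit of photosystem II. Several gene sets that respond to nutrient supply are relevant below. In iron-deficient plants a cascade of bHLH transcription factors turns on genes for iron transport and chelation, while genes of ferritin, the plastid iron store, are turned down. In plants short of sulfur, a small set of genes that includes LSU and SDI family members and the enzymes of sulfate reduction is turned up.

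Gene counts in the 14 samples came to between 45728485 and 112520877, and those of T+ to between 71118082 and 89686295. Levels are in CPM, a gene's share of the library's counts scaled to 1e+06, and a count of 0 allows up to between 0.0267 and 0.0656 CPM in a sample, for counting error only. T+ normal 1 stood apart in a principal component analysis, at 68.31 and −57.12 on components that held 25.3% and 15.5% of the variance, and its number of genes with a count, 21742, was the lowest. Of 9 root marker genes, only 1 passed the filter on low counts, and the summed level of the 9 was 0.51 to 3.17 CPM in T+ and 0.286 to 1.37 CPM in Gen2, with RHD6, EXPA7, PLT1 and PLT2 at 0 in every sample. The 12 floral organ genes summed to 9.04 to 19.7 CPM in T+ dwarf, 3.7 to 5.32 in T+ normal, 6.22 to 12.8 in Gen2 dwarf and 4.21 to 7.74 in Gen2 large, with none at 0 throughout. Summed light-harvesting genes came to 21100 to 28300 CPM in T+ dwarf, 39800 to 45800 in T+ normal, 24000 to 28600 in Gen2 dwarf and 27000 to 44000 in Gen2 large. The part of these tissue differences in the results below was not tested. In such bulk samples, fewer cells of a type and less RNA per cell cannot be told apart.

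Averaged over plant size, 3 genes differed between T+ and Gen2 and all 3 were higher in T+. They were PPD3 itself, the uncharacterized gene AT5G05250 and the tetratricopeptide-repeat gene AT1G04770. These 3 calls, at a Benjamini-Hochberg adjusted p under 0.05 in edgeR's quasi-likelihood test, were 0.0138% of 21703 genes tested. At an unadjusted p under 0.05, 909 genes (4.19%) were higher and 1049 (4.83%) lower. The median log2 difference over all genes was −0.01. DESeq2 called 92 genes higher (0.424%) and 39 lower (0.18%).

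PPD3 (AT1G76450, chromosome 1 from 28684551 to 28686244 in TAIR10.1, plus strand) stood at 747, 381 and 647 CPM in T+ dwarf 1 to 3. In T+ normal 1 to 3 it stood at 812, 636 and 652 CPM. It had 93.2, 114, 101, 105 and 121 CPM in Gen2 dwarf 1 to 5 and 133, 148 and 147 CPM in Gen2 large 1 to 3. Every T+ sample lay above every Gen2 sample, and T+ dwarf 2 was the lowest of the 6. The averaged log2 difference was 2.38 ± 0.13 (SE), with an adjusted p of 1.93e-09. Between dwarf plants it was 2.47 ± 0.16 and between normal and large plants 2.30 ± 0.19, and the difference between the sizes, 0.17 ± 0.24, did not pass (adjusted p = 0.838). Gen1 dwarf had 104, 101 and 92.4 CPM and WT 118, 93.9 and 125 CPM, so both stood at the Gen2 level. PPD3 was the only gene called between Gen1 dwarf and T+ dwarf (0.00461% of genes), at −2.58 ± 0.19 (adjusted p = 8.72e-07), and the only one called in both plant sizes between T+ and Gen2. It overlaps AT1G76460, which encodes an RNA-binding protein and differed by −0.06 (adjusted p = 0.91). None of the other 10 genes of the PsbP domain family was called, and the family's median was −0.02. MSH1 (AT3G24320), a MutS homologue that protects organelle genomes from recombination, ranged from 11.5 to 18.2 CPM in T+ and from 13.3 to 17.1 CPM in Gen2. Its difference was 0.03 ± 0.10 (adjusted p = 0.957).

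**Figure D1:**
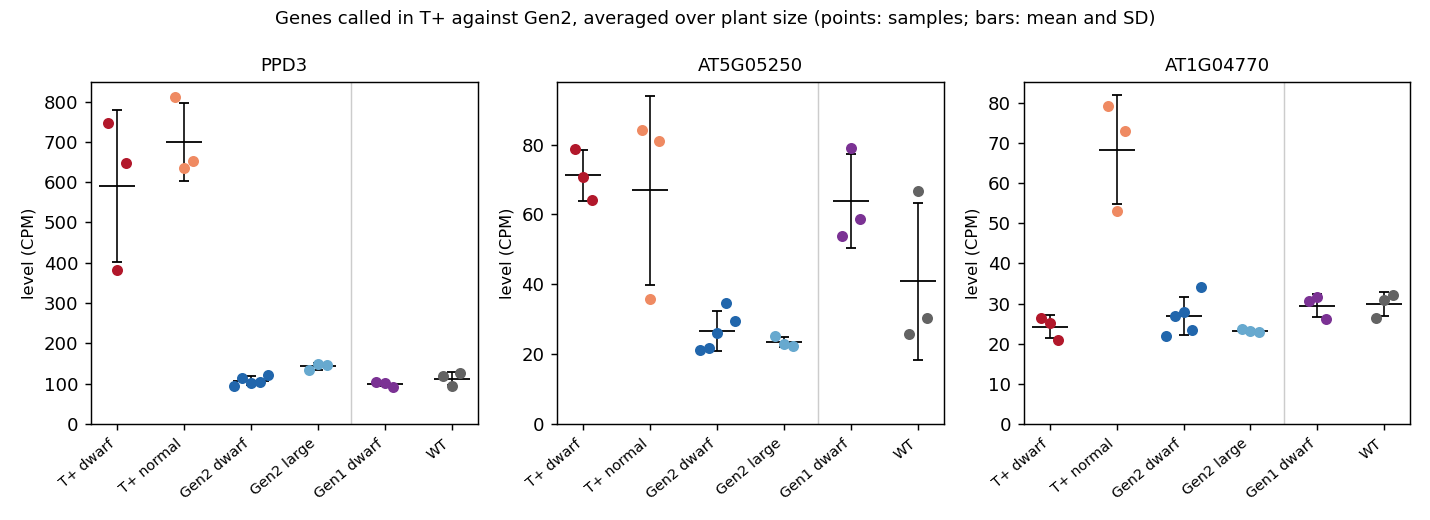
CPM of the 3 called genes in each sample of the 6 groups on linear axes, with the mean and SD of each group. PPD3 is between 381 and 812 CPM in the 6 T+ samples and at 148 CPM or less in all others, AT5G05250 is high in both T+ groups and in Gen1 dwarf, and AT1G04770 is high only in the 3 T+ normal samples.

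AT5G05250 (chromosome 5 from 1556987 to 1558486, minus strand) stood at 78.7, 70.8 and 64.1 CPM in T+ dwarf and at 84.2, 35.8 and 81.1 CPM in T+ normal. In Gen2 dwarf it had 21.1, 21.7, 25.9, 34.7 and 29.6 CPM, and in Gen2 large 25.1, 22.8 and 22.4 CPM. The 6 T+ samples did not overlap the 8 Gen2 samples, though T+ normal 2 was only just above Gen2 dwarf 4. The averaged difference was 1.47 ± 0.22 (adjusted p = 0.0254), with 1.42 ± 0.28 in dwarf plants and 1.52 ± 0.33 between normal and large plants. This gene was at a like level in the transgene-free Gen1 dwarf samples, with 53.9, 79.1 and 58.7 CPM. Gen1 dwarf minus T+ dwarf was −0.16 ± 0.32 (adjusted p = 0.997). In WT it stood at 25.7, 66.6 and 30.2 CPM, with WT 2 apart from the others. Its call was kept in 4 of the 14 fits that each left out 1 T+ or Gen2 library, those without T+ dwarf 3, T+ normal 2, Gen2 dwarf 3 or Gen2 dwarf 4, and lost in the others, with adjusted p reaching 0.168 without Gen2 large 2, and lost with the replicate block (0.0712) and without the filter on low counts (0.0507). AT5G05250 is not a member of the iron list described below. Like BTS, ZIF1 and BHLH39 of that list, it was high in T+ dwarf, Gen1 dwarf and WT 2. Unlike BTS and BHLH39, which were lower in T+ normal, it reached the T+ dwarf level in T+ normal 1 and T+ normal 3.

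AT1G04770 (chromosome 1 from 1336274 to 1337849, minus strand) is on the list of sulfur-deficiency genes. It stood at 26.5, 25.1 and 20.9 CPM in T+ dwarf and at 79.3, 53.0 and 72.9 CPM in T+ normal. Gen2 dwarf had 21.8, 26.8, 27.9, 23.3 and 34.0 CPM, and Gen2 large had 23.7, 23.2 and 22.8 CPM. Only T+ normal stood out, and T+ dwarf lay within or just below the range of Gen2. The averaged difference of 0.71 ± 0.11 (adjusted p = 0.0216) was made of −0.15 ± 0.14 in dwarf plants and 1.56 ± 0.16 between normal and large plants. The difference between the sizes was itself called, at −1.70 ± 0.21 (adjusted p = 0.00196). The averaged call was kept in 7 of the 14 fits that left out 1 library. It was lost without T+ dwarf 1, T+ normal 1, T+ normal 3, Gen2 dwarf 2 or any 1 of the Gen2 large samples, with adjusted p reaching 0.108 without T+ normal 1. It was lost in the additive model of transgene and size (0.564) and in the pooled comparison of T+ with Gen2 (0.784), which take the spread over both sizes. The gene overlaps AT1G04760, and counts of overlapping genes are uncertain.

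The averaged value joins plant sizes whose differences were barely correlated across genes. Across the 21703 genes, the dwarf difference and the difference between normal and large plants had a Pearson r of −0.0817, and 47.6% of genes had the same sign in both. This r is across genes, which are not independent, and no sample is shared by the 2 differences. Most genes were called in neither size, so r and the share of equal signs cannot tell whether true effects were shared. In dwarf plants 6 genes were called (0.0276%), 3 higher and 3 lower, or 8 and 3 without scaling factors beyond library size. Of these 6 and of 68 called between normal and large plants (0.313%), 1 gene, PPD3, was in both. The difference between the sizes was called for 142 genes (0.654%), 55 higher in dwarf plants (0.253%) and 87 lower (0.401%). Without scaling factors beyond library size the split was 76 and 53. In 139 of the 142, the 2 sizes had opposite signs. Genes selected for a large difference between 2 values tend to have opposite signs, so this count is no separate result. Some values were near 0, as for KFB50 (−0.06) and AT1G04770 (−0.15) in dwarf plants.

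**Figure D2:**
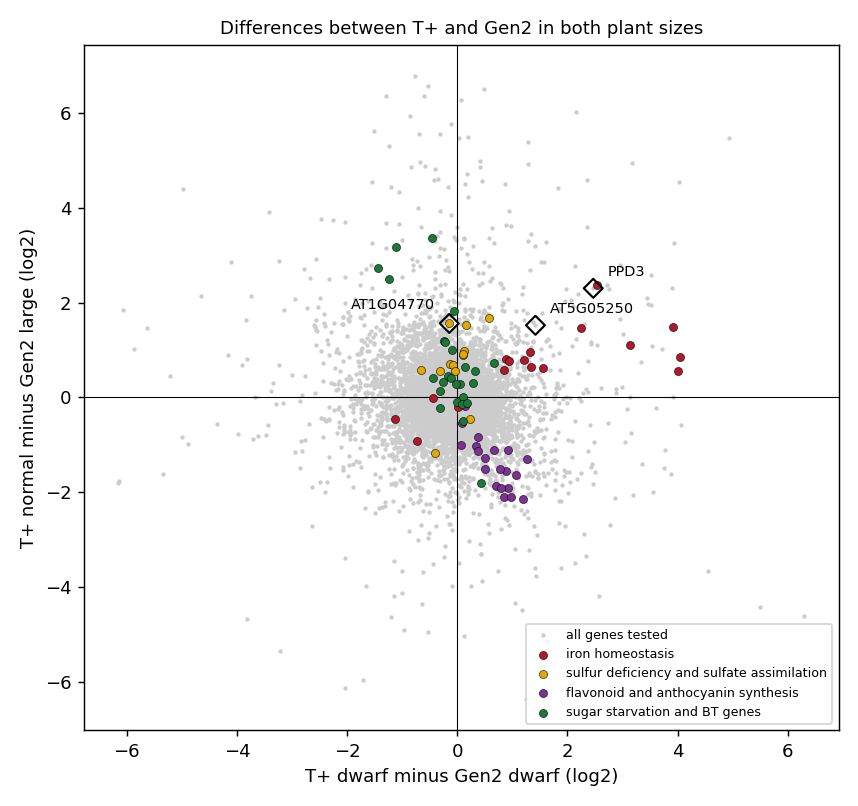
Log2 difference of T+ minus Gen2 for 21703 genes in dwarf plants (x axis) and between T+ normal and Gen2 large (y axis), with members of 4 gene lists coloured and the 3 genes called on average ringed. Iron genes lie to the upper right beside PPD3, flavonoid genes to the lower right, and sulfur and sugar-starvation genes mostly above 0 on the y axis with dwarf values near or below 0.

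Of the 25 lists with more than 1 gene tested, the iron homeostasis list had the highest median in both sizes. None of its 17 genes was called in the fit of all 20 samples, but 13 were higher and 2 lower in T+ at an unadjusted p under 0.05, where 4.19% and 4.83% of all genes were. The list's median log2 difference was 1.00, against −0.01 over all genes. In dwarf plants, 13 of the 17 had every T+ sample above every Gen2 sample, as 3.58% of all genes did. Between normal and large plants 10 of 17 did, against 9.13%. Counts and medians of this list, here and below, include AT1G47395, AT1G47400 and AT2G30766, placed on it with earlier results of these data known. None is given without these loci. In a fit without WT replicate 2, which was added after seeing the data because that WT library stood apart in these genes, 13 members were called higher, where 40 of all genes were (0.182%). In the fit of the 14 T+ and Gen2 samples alone, 11 members were called higher and 1 lower, where 34 (0.159%) and 6 (0.0281%) of all genes were. DESeq2 called 11 members higher and 2 lower, and the edgeR fit without T+ normal 2 called 3 higher, where 0.227% of all genes were. The fits without 1 of the other T+ or Gen2 libraries called none. Apart from ZIF1, the members described next were chosen after their values were seen.

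BHLH38, BHLH39, BHLH100 and BHLH101 encode the group Ib bHLH factors that mark the iron-deficiency response. BHLH39 (AT3G56980) had 7.47, 12.8 and 17.3 CPM in T+ dwarf, and 0.934, 0.818 and 0.866 CPM in T+ normal. In Gen2 dwarf it had 0.745, 0.882, 0.85, 0.554 and 0.745 CPM, and in Gen2 large 0.47, 0.766 and 0.185 CPM. It was thus high in T+ dwarf alone among the 4 groups, although T+ normal lay above Gen2 large without overlap. Its averaged difference was 2.45 ± 0.63 (adjusted p = 0.241), with 4.05 ± 0.80 in dwarf plants (0.0696) and 0.84 ± 0.94 between normal and large plants (0.784). BHLH38 and BHLH100 likewise had their highest values of the 4 groups in T+ dwarf, and differed by 2.28 ± 0.66 and 2.7 ± 0.62 on average. The close copies BHLH38 and BHLH39 are uncertain, since the files list no reads with more than 1 alignment. BHLH101 (AT5G04150) was the exception, at 2.78, 3.6 and 6.17 CPM in T+ dwarf and 2.88, 1.00 and 3.06 CPM in T+ normal, against 0.262 to 1.13 CPM in Gen2. Its difference was like in dwarf plants (2.53 ± 0.60) and between normal and large plants (2.38 ± 0.72), and 2.46 ± 0.47 on average (adjusted p = 0.077).

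**Figure D3:**
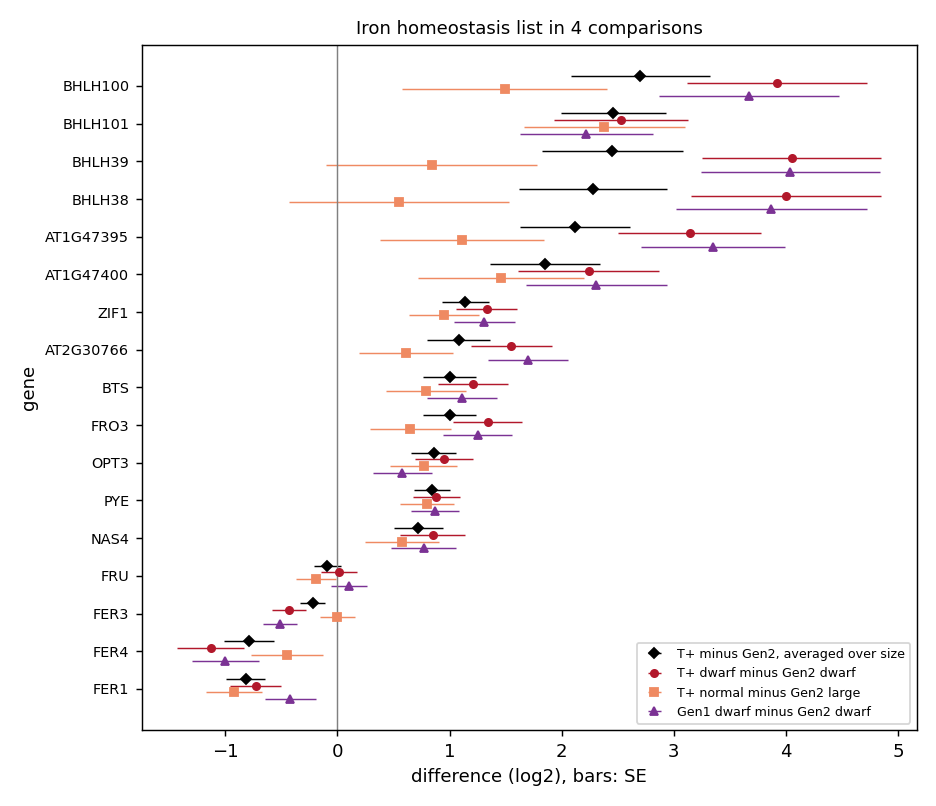
Log2 differences with their SE for the 17 iron list genes in 4 comparisons: T+ minus Gen2 averaged over size, in dwarf plants, between normal and large plants, and Gen1 dwarf minus Gen2 dwarf. Of the 17 averaged differences 13 are above 0, up to 2.7 for BHLH100, and those of the ferritin genes and FRU are below 0; Gen1 dwarf values lie near those of T+ dwarf, and both use the same Gen2 dwarf samples.

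Genes for iron sensing and transport had averaged differences between 0.72 and 1.14, none of which was called. BTS (AT3G18290), a ubiquitin ligase that restrains the iron-deficiency response, stood at 453, 538 and 498 CPM in T+ dwarf and, in T+ normal, at 371, 203 and 227 CPM. Gen2 dwarf had 165, 203, 192, 294 and 219 CPM and Gen2 large 164, 163 and 137 CPM. Within each size the groups did not overlap, but T+ normal 2 and T+ normal 3 lay in the range of Gen2 dwarf. The difference was 1.00 ± 0.24 (adjusted p = 0.181). ZIF1 (AT5G13740), which loads nicotianamine into the vacuole, stood at 95.2, 121 and 135 CPM in T+ dwarf and, in T+ normal, at 97.5, 51.4 and 67 CPM. In Gen2 it ranged from 35.7 to 54.1 CPM. It differed by 1.14 ± 0.21 (adjusted p = 0.077), the smallest p of the list, and only T+ normal 2 fell within the Gen2 range.

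PYE, a bHLH regulator of iron homeostasis, differed by 0.84 ± 0.16 (adjusted p = 0.077), with 17.0 to 33.1 CPM in T+ and 11.9 to 17.6 CPM in Gen2. OPT3, a phloem transporter that carries the iron signal from shoot to root, differed by 0.86 ± 0.20, FRO3, a ferric reductase, by 1.00 ± 0.24 and NAS4, a nicotianamine synthase, by 0.72 ± 0.22. None of these 3 was called, with adjusted p of 0.158, 0.192 and 0.344. The uncharacterized loci AT1G47395, AT1G47400 and AT2G30766, placed on the list with earlier results known, had differences of 2.12, 1.85 and 1.08. Ferritin genes went the other way. FER1 (AT5G01600) stood at 38.2, 43.9 and 50 CPM in T+ dwarf and, in T+ normal, at 30.7, 43.8 and 43.6 CPM. Gen2 had 53.3 to 87.4 CPM, without overlap, and FER1 differed by −0.82 ± 0.17 (adjusted p = 0.112). FER4 differed by −0.79 ± 0.22 and FER3 by −0.22 ± 0.11. FRU (AT2G28160), the regulator of iron uptake in roots, stayed between 4.29 and 5.64 CPM in T+ and 3.36 and 6.27 CPM in Gen2, and differed by −0.09 ± 0.12 (adjusted p = 0.865).

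The same genes stood high in the transgene-free dwarf generation. BTS had 486, 534 and 373 CPM in Gen1 dwarf, ZIF1 had 111, 130 and 104 CPM and BHLH39 had 10.7, 20.3 and 6.24 CPM. Between Gen1 dwarf and T+ dwarf no iron gene was called. The list's median was −0.02, with a range of −0.37 to 0.31, and the SE was 0.36 for BTS, 0.30 for ZIF1 and 0.84 for BHLH39. Against Gen2 dwarf, Gen1 dwarf was higher without overlap in 13 of 17 members, as were 4.07% of all genes, and 2 members were called, BHLH39 (4.04, adjusted p = 0.049) and AT1G47395 (3.35, 0.0433), where 0.143% of all genes were called higher. This comparison and the dwarf difference above share the Gen2 dwarf samples. AT1G47395 is among the loci placed on the list with earlier results of these data known. The level in WT varied by sample. BTS had 95.4, 424 and 222 CPM in WT 1 to 3, ZIF1 had 33.5, 105 and 41.4 CPM and BHLH39 had 0.23, 9.09 and 0.487 CPM, so that WT 2 stood near T+ dwarf and the others near Gen2. High levels of these genes were thus measured both with the transgene and without it. No label states whether plants shared trays or a harvest time.

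**Figure D4:**
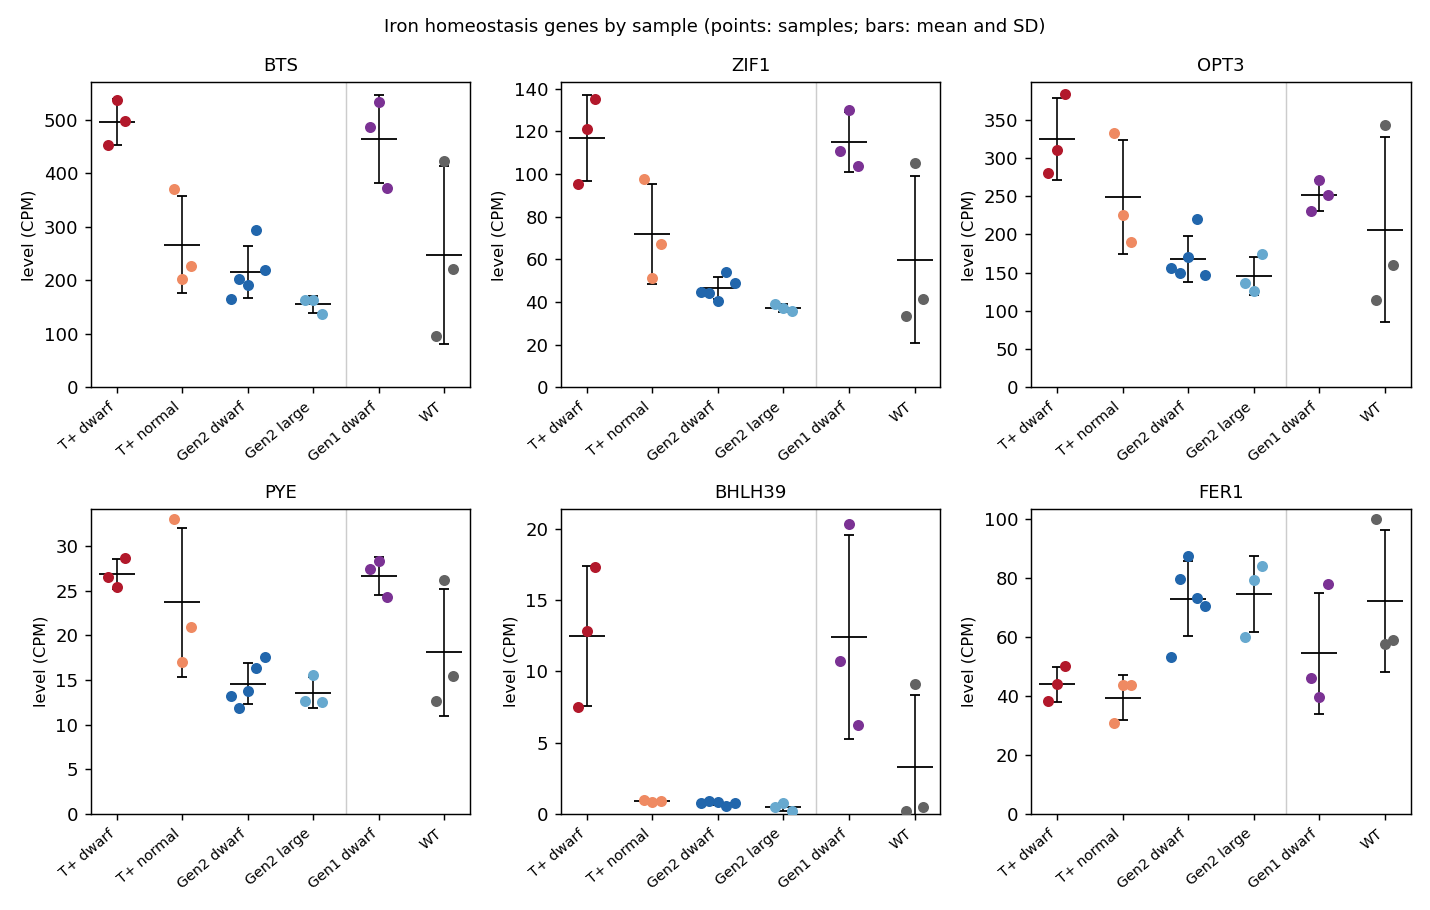
CPM of 6 iron genes in each sample of the 6 groups, with group mean and SD (bars below 0 are cut off). BTS, ZIF1, OPT3, PYE and BHLH39 are high in T+ dwarf, Gen1 dwarf and WT 2, FER1 has its lowest group means in T+, and T+ normal 1 exceeds T+ normal 2 and 3 for BTS, ZIF1, OPT3 and PYE.

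Promoter windows of 250 bases before the annotated gene start are shown for AT5G05250, the called gene that was high in Gen1 dwarf and WT 2 too. Also shown are the 4 iron list members other than ferritin genes whose windows hold CACGTG, the G-box, and which thus match by choice. Several bHLH factors of this response bind the G-box. The sequences are from TAIR10.1 (RefSeq), 5′ to 3′ on the strand of the gene, with each CACGTG, which reads the same on both strands, in capitals. The windows are chr5:1558487-1558736 (minus) for AT5G05250, chr3:6273716-6273965 (plus) for BTS, chr3:21085246-21085495 (minus) for BHLH38, chr2:17199455-17199704 (minus) for BHLH100 and chr4:9250344-9250593 (minus) for OPT3.
AT5G05250: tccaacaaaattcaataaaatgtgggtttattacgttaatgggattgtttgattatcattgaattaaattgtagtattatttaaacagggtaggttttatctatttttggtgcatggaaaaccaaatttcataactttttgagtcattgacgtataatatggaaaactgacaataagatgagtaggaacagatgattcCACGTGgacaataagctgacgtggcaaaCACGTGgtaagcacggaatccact
BTS: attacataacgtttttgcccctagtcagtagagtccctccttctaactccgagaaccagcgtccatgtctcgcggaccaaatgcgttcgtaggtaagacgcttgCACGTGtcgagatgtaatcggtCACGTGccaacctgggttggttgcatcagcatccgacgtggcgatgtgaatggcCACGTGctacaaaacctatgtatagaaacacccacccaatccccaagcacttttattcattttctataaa
BHLH38: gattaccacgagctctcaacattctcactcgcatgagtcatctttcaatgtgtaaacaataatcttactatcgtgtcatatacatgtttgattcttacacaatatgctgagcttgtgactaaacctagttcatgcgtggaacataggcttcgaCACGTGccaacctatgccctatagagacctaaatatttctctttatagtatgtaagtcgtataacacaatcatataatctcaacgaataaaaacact
BHLH100: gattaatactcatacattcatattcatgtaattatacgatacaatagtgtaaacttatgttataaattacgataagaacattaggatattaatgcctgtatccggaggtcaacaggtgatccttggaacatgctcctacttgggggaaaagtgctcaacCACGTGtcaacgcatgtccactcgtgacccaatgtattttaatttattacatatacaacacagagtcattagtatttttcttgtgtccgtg
OPT3: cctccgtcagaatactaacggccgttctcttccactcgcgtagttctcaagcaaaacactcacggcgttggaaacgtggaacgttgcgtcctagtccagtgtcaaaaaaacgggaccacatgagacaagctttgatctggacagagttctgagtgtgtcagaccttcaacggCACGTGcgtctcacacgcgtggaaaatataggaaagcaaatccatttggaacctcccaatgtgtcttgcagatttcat
AT5G05250 held 2 matches and BTS held 3. Of the 17 iron list windows 6 (35.3%) held CACGTG, against 1561 of 21691 windows of tested genes (7.2%). The 6 include FER3 and FER4, whose differences were below 0, while PYE, ZIF1, FRO3, BHLH39 and BHLH101 had no match. A match is a description of the letters and does not show binding. The sulfur-response core GAGAC, searched on both strands, was in 3 of 13 windows of the sulfur list (23.1%) and in 25.5% of all windows. GAGAC was also in 8 of 17 iron list windows (47.1%). The AT1G04770 window held neither motif.

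Of the 13 sulfur-deficiency genes, 4 rose in T+ normal against Gen2 large, and none was called in T+ dwarf against Gen2 dwarf. The difference between the sizes was called for AT1G04770 alone. On average 1 of 13 list members was called, AT1G04770, and 7 were higher at an unadjusted p under 0.05, with a median of 0.31. Between normal and large plants the median was 0.71 and 4 members were called higher, where 0.276% of all genes were. Of the 13, 10 had every T+ sample above every Gen2 sample, against 9.13% of all genes. In 1 member every T+ sample lay below every Gen2 sample, against 8.71%, and values of the list reached down to −1.18. In the averaged difference 10 members were above 0 and 3 below, the lowest being BGLU28 at −0.79 (adjusted p = 0.699). In dwarf plants the median was −0.05, and no member was called or had all T+ samples above Gen2. LSU2 (AT5G24660), a gene of the low-sulfur response, had 25.7, 20.3 and 28.1 CPM in T+ normal against 13.3, 11.2 and 13.1 CPM in Gen2 large, but 11.5, 14.8 and 9.71 CPM in T+ dwarf against 9.09 to 12.5 CPM in Gen2 dwarf. It rose by 0.98 between normal and large plants (adjusted p = 0.00734) and differed by 0.55 ± 0.11 on average (0.077). SDI1 (AT5G48850), which limits glucosinolate synthesis when sulfur is short, had 17.4, 11.4 and 15.8 CPM in T+ normal and 5.41, 4.37 and 4.11 CPM in Gen2 large. It rose by 1.68 there (adjusted p = 0.0324), against 0.57 in dwarf plants (0.511) and 1.12 ± 0.21 on average (0.077). The difference between sizes did not pass for LSU2 (−0.86, adjusted p = 0.0686) or SDI1 (−1.11, 0.267). APR3, an enzyme of sulfate reduction, was the fourth gene called between normal and large plants, at 0.90 (adjusted p = 0.0469).

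Of the 26 sugar-starvation genes, 5 differed between the plant sizes, each with the higher value between normal and large plants. Between normal and large plants 20 of the 26 were above 0 and 6 below, from −1.80 to 3.35. AT2G20670, on the list of sugar-starvation genes, had 24.2, 15.8 and 46.4 CPM in T+ normal. In T+ dwarf it had 2.61, 1.73 and 1.82 CPM, in Gen2 dwarf 2.54 to 6.88 CPM and in Gen2 large 3.09, 3.39 and 3.04 CPM. It was several times higher in T+ normal than in any other group, and Gen1 dwarf (2.49 to 3.20 CPM) and WT (2.20 to 5.20 CPM) were low too. The averaged difference, 1.03 ± 0.25 (adjusted p = 0.181), joined −1.12 in dwarf plants and 3.18 between normal and large plants, and the difference between the sizes was −4.30 ± 0.53 (adjusted p = 0.00196). BT2 and BT5, scaffold proteins with BTB and TAZ domains that rise when sugar is short, differed between the sizes by −3.74 (adjusted p = 0.0239) and −4.17 (0.0212). KFB20 and KFB50, kelch-domain F-box proteins that direct the breakdown of phenylalanine ammonia-lyase, differed by −3.81 and −1.88 (adjusted p = 0.0165 for both). KFB50 had 94.5, 69.0 and 141 CPM in T+ normal, against 24.9 to 50.2 CPM in Gen2, and 31.3 to 38.6 CPM in T+ dwarf. These 5 were lower in the difference between sizes, where 0.401% of all genes were. Of the 5 calls, that of AT2G20670 alone was kept without Gen2 large 1 or Gen2 large 2, 2 were kept without T+ dwarf 2 or Gen2 large 3, and 3 without T+ dwarf 1 or T+ normal 1. The list's median was 0.16 on average, −0.08 in dwarf plants and 0.41 between normal and large plants.

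Flavonoid and anthocyanin genes had opposite signs in the plant sizes. All 20 list members were above 0 in dwarf plants (median 0.74) and below 0 between normal and large plants (median −1.40), and their averaged median was −0.37. In the latter, 19 of 20 had every T+ normal sample below every Gen2 large sample, against 8.71% of all genes, and 1 was called. DFR (AT5G42800), an enzyme of anthocyanin synthesis, had 62.6, 72.7 and 53.3 CPM in T+ dwarf and 6.67, 11.4 and 20.6 CPM in T+ normal. In Gen2 dwarf it had 55.8, 49.6, 24.6, 19.7 and 16.9 CPM, and in Gen2 large 62.3, 46.8 and 37.7 CPM. T+ normal was below Gen2 large without overlap, while T+ dwarf 3 lay below Gen2 dwarf 1, so that the dwarf groups overlapped. The difference between the sizes was called for 8 members, all higher in dwarf plants, where 0.253% of all genes were. These 8 were AT1G03940 (3.34), UGT79B1 (3.07), F3'H (2.95), DFR (2.84), AT4G14090 (2.69), LDOX (2.56), GSTF12 (2.44) and PAP1 (2.02), the last a MYB activator of the pathway. Most of these calls were lost when any 1 of several libraries was left out. Of the 8, none was kept without T+ normal 1, 1 without T+ dwarf 2, Gen2 large 1 or Gen2 large 2, and 2 without T+ dwarf 1, Gen2 dwarf 3 or Gen2 large 3. Without T+ normal 2 or T+ normal 3 the number kept was 4, and without Gen2 dwarf 5 it was 3. The replicate block, the 14 samples alone and the absence of a filter each kept 4. All 8 stayed above 0 in every alternative run, with adjusted p up to 0.117 for LDOX. On average none was called. The member with the smallest p there was CHI, chalcone isomerase, at −0.35 ± 0.16 (adjusted p = 0.549).

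**Figure D5:**
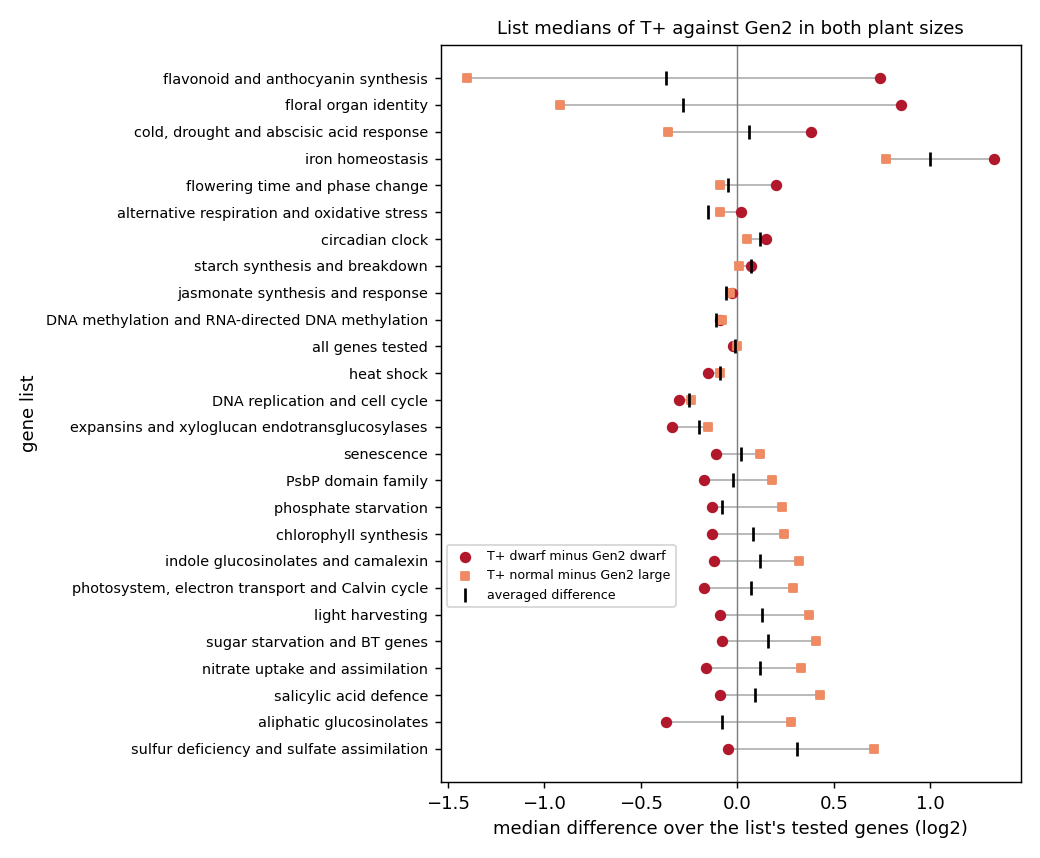
Median log2 difference over the tested genes of 25 gene lists and over all genes tested, in dwarf plants (circles), between normal and large plants (squares) and averaged (ticks). Iron is above 0 in both sizes (1.33 and 0.77), sulfur only between normal and large plants (0.71), and flavonoid genes are at 0.74 and −1.40.

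The 5 genes with the smallest adjusted p for the difference between sizes were AT1G04770, AT2G20670, AT3G18773, AT4G32480 and CER1. AT3G18773, a RING/U-box gene, and AT4G32480, a gene with a domain of unknown function, had values of −2.90 ± 0.42 and −2.36 ± 0.33 (adjusted p = 0.00641 for both). CER1 (AT1G02205), which makes the alkanes of the leaf wax, was opposite, at 2.87 ± 0.40 (0.00641). It had 111, 99.1 and 135 CPM in T+ dwarf and 21.4, 52.2 and 41.9 CPM in T+ normal. In Gen2 dwarf it had 44.3, 40.2, 48.7, 26.9 and 42.6 CPM, and in Gen2 large 105, 82.2 and 110 CPM. The high groups were thus T+ dwarf and Gen2 large, and the average was 0.07 ± 0.20 (adjusted p = 0.949).

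Among dwarf plants alone, 5 genes besides PPD3 were called, which are named here as a count of few and were not picked by a rule. CDI, a sugar transferase, rose by 0.71 ± 0.11 (adjusted p = 0.0191) and PUP1, a purine permease, by 0.84 ± 0.14 (0.043). RL4, a RAD-like MYB gene, fell by 1.23 ± 0.16 on the log2 scale (adjusted p = 0.00488), GDH3, a glutamate dehydrogenase, fell by 1.79 ± 0.26 (0.0125) and CYP78A8, a cytochrome P450, fell by 1.76 ± 0.28 (0.0209). RL4 had 7.84, 8.10 and 9.47 CPM in T+ dwarf and 14.7 to 22.8 CPM in Gen2 dwarf, and the transgene-free Gen1 dwarf had 9.68, 9.84 and 10.8 CPM. For RL4, T+ dwarf and Gen1 dwarf stood together, as for the iron genes, and below every other group. RL4 means were 19.8 CPM in Gen2 dwarf, 20.1 in T+ normal, 18.2 in Gen2 large and 18 in WT. For CDI, PUP1 and CYP78A8, Gen1 dwarf also stood nearer T+ dwarf than Gen2 dwarf. Means in T+ dwarf, Gen1 dwarf and Gen2 dwarf were 79, 70.2 and 48.5 CPM for CDI. They were 56, 48.7 and 31.2 CPM for PUP1 and 1.49, 1.87 and 5.06 CPM for CYP78A8. For GDH3, Gen1 dwarf stood nearer Gen2 dwarf, with means of 1.1 CPM in T+ dwarf, 2.89 in Gen1 dwarf and 3.82 in Gen2 dwarf.

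Few genes separated all T+ from all Gen2 samples. The 6 T+ samples lay above the 8 Gen2 samples for 8 genes (0.0369%) and below for 11 (0.0507%). Besides PPD3, AT5G05250 and FER1, none of the 19 was called or on the iron list. MAF5 (AT5G65080), a MADS-box repressor of flowering, had the widest difference among those lower in T+, chosen after its values were seen. It had 0.919, 18.4 and 1.39 CPM in T+ dwarf and 8.52, 0.779 and 7.14 CPM in T+ normal, against 28.4 to 52.8 CPM in Gen2. The samples varied widely within T+, and the difference of −2.67 ± 0.66 was not called (adjusted p = 0.223). In Gen1 dwarf it had 5.89, 5.80 and 10 CPM and in WT 0.813, 1.37 and 4.51 CPM, so that Gen2 was the group apart, at 4.16 ± 0.98 above WT (adjusted p = 0.22). AT3G56360, an uncharacterized gene, and OZF2, a zinc-finger gene, were higher in T+ without overlap, at 0.89 ± 0.16 (adjusted p = 0.075) and 0.67 ± 0.13 (0.077), also chosen after their values were seen.

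In the other lists no member was called on average. All 21 DNA replication and cell cycle genes were below 0, with a median of −0.25 (−0.30 in dwarf plants, −0.24 between normal and large plants), and CYCA1;1, an S-phase and mitotic cyclin, was at −0.52 ± 0.18 (adjusted p = 0.423). The median was −0.20 for expansins and xyloglucan endotransglucosylases, 0.13 for light harvesting, 0.12 for the circadian clock and for nitrate uptake, 0.09 for salicylic acid defence, −0.06 for jasmonate and −0.11 for DNA methylation. Clock gene PRR5, an evening pseudo-response regulator, had the smallest p of its list (0.45 ± 0.09, adjusted p = 0.077), and so did IGMT1, an indole glucosinolate methyltransferase (0.86 ± 0.17, 0.077). Further members with the smallest p of their list were NRT1.1 (nitrate, −0.43), RD20 (drought and abscisic acid, −0.40), CSD2 (oxidative stress, −0.50), ORS1 (senescence, 0.80) and SUVH2 (DNA methylation, 0.21), with adjusted p from 0.205 to 0.413.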

How the data were processed

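RNA of aboveground tissue was made into TruSeq RNA v2 libraries and read as 100-bp pairs, per the labels' protocols. The deposited values are raw counts, whole numbers for each gene and sample. Per the submitters' processing notes, the authors used Trim Galore 0.4.1, STAR 2.7.0a and the TAIR10 build. The counting program and its strand setting were not found in the labels or file headers. Since the kit leaves strand unmarked, reads of overlapping or antisense genes cannot be told apart, and close copies are uncertain. Lines without a gene entered neither library sizes nor tests, and came to at most 1.14% (no feature) and 0.36% (ambiguous) of a sample's gene counts. Organelle genes are at 0 in every sample. Names and coordinates are from TAIR10.1, in which 32548 of 34262 loci were found.

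All 20 samples were fitted together in edgeR 4.0.16 (R 4.3.3), 1 coefficient for each group, with TMM scaling (0.91 to 1.05). A filterByExpr minimum of 10 counts kept 21703 genes, which were tested by robust quasi-likelihood with 14 residual degrees of freedom, at a common biological coefficient of variation of 0.225. P-values were adjusted by Benjamini-Hochberg over all genes tested, with a threshold of 0.05. The averaged difference weights each of the 4 groups equally, and errors of log2 differences are SE. The difference between sizes is the dwarf value minus that between normal and large plants. The scripts were tested on simulated data. The chi-square per gene between samples of a group was 36.3 to 209.8, beyond counting noise alone. It cannot tell biological from technical replicates, and each sample was treated as 1 replicate. Alternatives were other scaling, no filter, DESeq2 1.42.0, the 14 samples alone, additive and pooled models, a replicate block and leaving out each library.

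Genes were named by rule: PPD3 and MSH1, called genes without overlap, called list members, genes called in both sizes, the 5 smallest p for the difference between sizes, and the smallest p of each list without a call. List members called within a size or in the difference between sizes, and other genes marked so, were named after their values were seen. The comparison, the 26 lists of 492 loci and the rule were chosen with earlier results of these data known.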

Additional observations from a re-analysis of the deposited data

Results flagged for a closer look

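T+ minus Gen2 differed between plant sizes, by the test of the difference itself, for KFB50 (−1.88), AT1G04770 (−1.70), AT2G20670 (−4.30), AT4G32480 (−2.36), AT3G18773 (−2.90) and CER1 (2.87), in log2 units. Transgene, generation and the labels normal and large cannot be told apart in these values. A sample stood far from the others of its group for WRKY70 in Gen2 dwarf 1 (189 CPM, the lowest of 5), CSD2 in Gen2 dwarf 3 (337 CPM, the highest), BHLH38 in Gen2 dwarf 5 (3.88 CPM, the highest), BGLU28 in Gen2 dwarf 5 (0.559 CPM, the highest) and LOG4 in Gen2 dwarf 1 (0.855 CPM, the highest). Only Gen2 dwarf, with 5 samples, was checked in this way, for 98 named genes, and chance flags about 1 in 20 of them. The flags listed are near that share.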

How the results depend on the processing

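PPD3 was called under all alternatives run, at 2.29 to 2.51, and no result that was called reversed. For the averaged difference the count of 3 became 40 with the 14 samples alone, 46 without WT replicate 2 (chosen after seeing the data), 131 with DESeq2, 22 in the additive and 9 in the pooled model, and 1 to 55 without 1 library, lowest without T+ dwarf 1, T+ normal 1, T+ normal 3, Gen2 dwarf 2 or any Gen2 large sample and highest without T+ normal 2. The count of 6 in dwarf plants became 11 without scaling factors beyond library size, 110 with the 14 samples, 256 with DESeq2, 85 without WT replicate 2 and 1 to 13 without 1 library. The count of 68 between normal and large plants became 41 without scaling factors, 374 with DESeq2 and 13 to 167 without 1 library, lowest without Gen2 large 2. The count of 142 for the difference between sizes became 638 with DESeq2 and 16 to 291 without 1 library, lowest without Gen2 large 2 and highest without Gen2 dwarf 1. The causes of these changes were not tested, apart from the fewer samples in each fit. With the replicate block, the counts were 3 on average, 2 in dwarf plants, 110 between normal and large plants and 93 for the difference between sizes. The labels' replicate numbers did not pair the samples: among 18 pairs with the same number the correlation of deviations was −0.44 to 0.28, and 4 were over 0.1. Whether depth limited any result was not tested.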
